A study of Mus musculus with 20 samples.

Results

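The response of mouse skeletal muscle to 6 weeks of treadmill training was measured by RNA sequencing in muscle labelled as a knockout for BMAL1. BMAL1 is the activating transcription factor of the circadian clock. The members were chosen by label: 5 sedentary libraries titled iMSBmal1KO Control and 5 titled iMSBmal1KO Exercise Trained, which is 10 of the 20 libraries of the series. After near-identical libraries were summed, they gave 8 of the 18 samples, 5 sedentary and 3 trained. All mice of both groups carried the genotype Cre+:iMSBmal1 fl/fl, a floxed Bmal1 gene with a Cre recombinase, and both groups are labelled iMSBmal1KO, a muscle-specific knockout; the sedentary group is labelled No Exercise and the trained group Exercise Training. Vehicle-treated animals with the same floxed alleles and Cre, sedentary or trained, formed the other 10 libraries, which are used here for a few reference values and for the test of whether the response differed between knockout and vehicle muscle. The labels give neither the promoter of the Cre, nor the inducing agent, nor the age or sex of the animals. The labels name the gastrocnemius in one field and the tibialis anterior in another, and hindlimb muscle is used here for both. Collection was 48 hours post per the labels and at 47 hours from the final exercise bout per the series design. Nothing states that the replicates of a group came from separate animals, so the p-values measure only the spread between these samples, which may be technical.

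Endurance training is known to enlarge the mitochondrial network of muscle fibres, with more of the respiratory chain, whose complexes I to IV pass electrons to oxygen, and of ATP synthase, which uses the resulting proton gradient to make ATP. Most subunits of these complexes are encoded in the nucleus and a few in mitochondrial DNA, and coactivators such as PGC-1α with receptors of the ERR family and the factor NRF1 drive their genes. BMAL1 pairs with CLOCK to activate genes through E-box sequences, among them the Period genes, and in muscle it is known for control of glucose and lipid metabolism.

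The libraries held between 11506037 and 18969645 estimated counts in the sedentary group and between 10610333 and 13079961 in the trained group. The 5 trained libraries did not behave as 5 independent samples. Their squared differences, as a median over genes whose counts summed to between 1000 and 10000, were 2.38 times the Poisson expectation for trained libraries 1 and 4 and 1.76 times for trained libraries 3 and 5, against at least 6.38 in the other 188 pairs of libraries in the series. Each of these pairs was therefore summed to 1 sample, and the trained group has n = 3. The summed trained libraries 1 and 4 are below called trained sample 1+4. This sample lay at the edge of the controls on principal component 1 and beyond them on component 2. Principal component 1 held 41.2% of the variance. On it the controls scored from -17.8 to 1.5, trained sample 1+4 scored -17.9, trained sample 2 scored 42.6 and trained sample 3+5 scored 22. Principal component 2 held 21.1%. There the controls scored from -10.6 to 22.5, trained sample 1+4 -19, trained sample 2 -0.476 and trained sample 3+5 -18. The results over all genes and over the gene lists are given with all 3 trained samples and without trained sample 1+4.

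The targeted gene was read first. Arntl (Bmal1, ENSMUSG00000055116) was at 18.9, 11.4, 11, 11.6 and 13.1 CPM (a count divided by its library's sum and scaled alike in all libraries) in sedentary libraries 1 to 5. It was at 16 CPM in trained sample 1+4, 8.72 in trained sample 2 and 8.05 in trained sample 3+5. The trained samples 2 and 3+5 lay below all controls and sample 1+4 lay among them. The difference of log2(CPM + 1) was -0.284, trained minus sedentary, with p = 0.357 in a two-sided exact permutation test, whose smallest possible p is 0.0357 for 5 against 3 samples. Without trained sample 1+4 the difference was -0.571 (exact permutation p = 0.0952). This is the smallest p the test can give for 5 against 2 samples, so it could not have fallen under 0.05. The vehicle sedentary libraries lay between 5.68 and 7.93 CPM, below every sample labelled knockout. Gene-level counts can include reads outside the deleted part, so this transcript does not check the label. Both sides of the training comparison carry the same knockout label, and its directions rest on the training labels alone.

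Over all genes, no gene passed the threshold. Of 14085 genes tested with edgeR's quasi-likelihood test, 0 had a Benjamini-Hochberg adjusted p under 0.05 (0% called), and the smallest adjusted p was 0.0956. At an unadjusted p under 0.05 there were 1355 genes higher in the trained samples (9.62%) and 831 lower (5.90%). DESeq2, the other count model run, called 399 genes higher (2.83%) and 124 lower (0.880%). Without trained sample 1+4, which leaves 2 trained samples, edgeR called 1269 genes higher (9.01%) and 496 lower (3.52%). Without trained sample 2 edgeR called 0 genes (smallest adjusted p 0.32), and without trained sample 3+5 also 0 (smallest 0.0852). Calls without sample 1+4 thus depend on which trained sample is left out. For 409 of the 1765 genes called without sample 1+4, all 3 trained samples lay beyond all controls on that side in CPM. These genes were called from samples 2 and 3+5 against the same controls, so the 409 are not an independent check. The balance of directions depended on the scaling. By column sums alone the median log2 change over all genes was -0.16, against -0.02 with the TMM scaling used in the tests. The groups did not overlap, with the trained samples higher, for 2.00% of genes in CPM and 4.46% in TMM-scaled CPM; with the trained samples lower, the shares were 9.97% and 4.27%. Levels below are CPM by column sums, and log2 changes and counts of lists whose groups do not overlap are on the TMM scale. Counts of list members below stand against the shares over all genes given here.

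Transcript length moved with the trained samples. Over genes, the deviation from the control mean had a Spearman correlation with transcript length of -0.513 in trained sample 2 and -0.54 in trained sample 3+5, against -0.018 in trained sample 1+4 and -0.164 to 0.094 in the controls; the genes share their libraries. The median log2 change was 0.44 over 1194 genes with transcripts of up to 1000 bases and -0.13 over 5071 genes with transcripts over 4000 bases. A fit with a per-sample length offset, added after the data had been seen, called 0 genes at an adjusted p under 0.05 (smallest 0.19). At an unadjusted p under 0.05 it left 890 genes higher (6.32%) and 540 lower (3.83%). Medians with this offset are given for the main lists, and the plot of list medians shows them for every list. The part of transcript length in the gene differences beyond this offset was not tested.

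The nuclear genes of the respiratory chain and ATP synthase lay above the sedentary level in the trained knockout samples as a group. Of 79 tested genes, all 79 had a log2 change above 0, though none passed the threshold with all 3 trained samples. The median log2 change was 0.63, from 0.02 to 1.09, against -0.02 over all tested genes. All 3 trained samples lay above all 5 controls for 54 of the 79, against 4.46% of all genes. The summed level of the 79 genes was between 20850 and 22990 CPM in the controls, 25080 in trained sample 1+4, 32210 in sample 2 and 30120 in sample 3+5. Without trained sample 1+4, 72 of 79 were called higher, none lower, with a median of 0.83. With the length offset the median was 0.37, with 76 of 79 above 0 and 62 at an unadjusted p under 0.05 against 6.32% of all genes. DESeq2 called 66 higher.

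The list was above the control mean in trained sample 1+4 as well, though by less. Its median deviation of log2(CPM + 1) was 0.19 there, 0.70 in sample 2 and 0.57 in sample 3+5, with controls from -0.14 to 0.07. Within lengths of up to 1000 bases, 38 genes of the list had a median log2 change of 0.73 against 0.44 for all genes. Among transcripts of over 1000 and up to 2000 bases the medians were 0.49 over 24 genes of the list and 0.15 over all genes. Between 2000 and 4000 bases they were 0.44 over 13 genes and 0 over all genes, and above 4000 bases 0.71 over 4 genes and -0.13 over all genes. The median of the list thus lay above that of all genes in each of the 4 length classes. Length here is that of the longest annotated transcript, which may not be the one expressed. The classes and the offset therefore may not match genes by the length of their expressed transcripts. These are bulk samples, in which more cells of a type and more RNA per cell cannot be told apart.

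**Figure D1:**
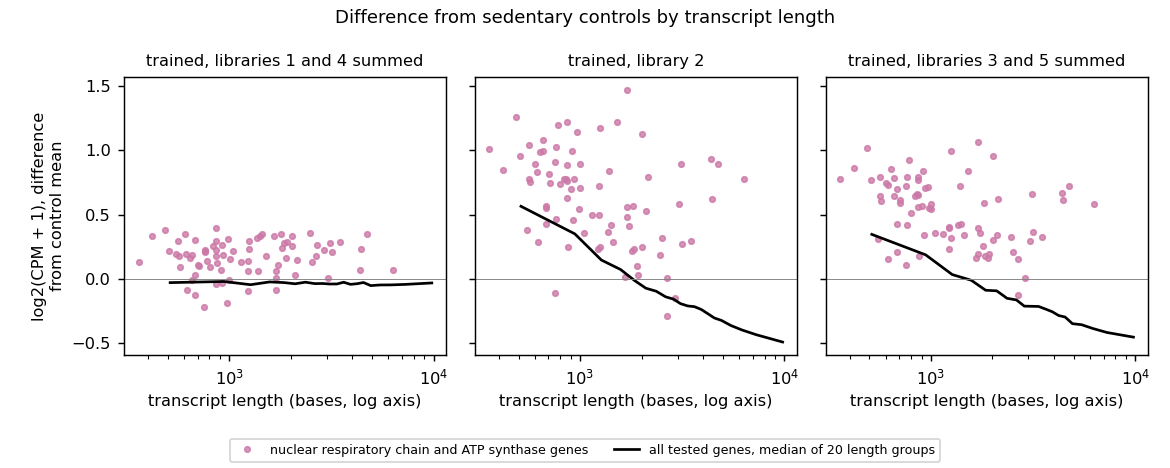
Each panel plots, for 1 trained sample, the difference of log2(CPM + 1) from the control mean against transcript length in bases on a log axis; points are the 79 nuclear respiratory chain and ATP synthase genes and the line is the median of all tested genes in 20 length groups. The line falls with length in trained samples 2 and 3+5 and is flat in trained sample 1+4, and most points lie above it in each panel.

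Promoters of 3 of these genes are shown because they hold the sequences through which BMAL1, the ERR receptors or NRF1 are known to bind. They were picked for their motif matches. Each is the 250 bases before the start in RefSeq's GRCm38.p6 annotation, 5′ to 3′ on the gene's strand, with the match in capitals. Atp5g3 (chr2:73911327-73911576, minus strand) holds an E-box, CACGTG, at base 13 and the ERR sequence TCAAGGTCA, in reverse complement, at base 199. Atp5g1 (chr11:96075632-96075881, minus strand) holds an E-box at base 207, and Ndufa11 (chr17:56717512-56717761, plus strand) holds the palindromic NRF1 sequence at base 191.
Atp5g3: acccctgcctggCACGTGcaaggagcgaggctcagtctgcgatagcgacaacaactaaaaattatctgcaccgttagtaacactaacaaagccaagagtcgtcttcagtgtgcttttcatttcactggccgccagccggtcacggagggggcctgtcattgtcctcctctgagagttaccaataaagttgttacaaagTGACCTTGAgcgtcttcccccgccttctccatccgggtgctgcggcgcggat
Atp5g1: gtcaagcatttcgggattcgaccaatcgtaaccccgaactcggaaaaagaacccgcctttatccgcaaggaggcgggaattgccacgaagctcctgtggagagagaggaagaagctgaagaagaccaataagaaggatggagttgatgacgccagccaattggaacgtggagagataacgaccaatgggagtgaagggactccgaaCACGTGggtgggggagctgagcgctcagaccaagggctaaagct
Ndufa11: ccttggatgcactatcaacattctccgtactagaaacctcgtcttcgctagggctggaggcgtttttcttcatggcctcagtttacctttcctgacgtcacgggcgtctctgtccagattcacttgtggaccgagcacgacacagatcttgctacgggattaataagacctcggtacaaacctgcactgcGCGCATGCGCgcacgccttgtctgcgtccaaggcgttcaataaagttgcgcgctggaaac

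Motifs were searched on both strands of the 300-base RefSeq promoters, which matched 66 of the 79 genes with 71 promoters. The NRF1 sequence stood in 5 of these 71 (7.04%) against 0.971% of all 32851 promoters. The ERR sequence stood in 2 (2.82%) against 0.423%, and the E-box in 7 (9.86%) against 7.15%. The E-box stood in 13.5% of 52 promoters of the cytosolic ribosome list and 28.6% of 21 promoters of the clock list. Each is a match of letters and not a measured site.

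Complex I, which takes electrons from NADH, had 37 tested nuclear subunits, of which 26 had all trained samples above all controls and 35 were called higher without trained sample 1+4. Their median log2 change was 0.65, and 0.37 with the length offset. Ndufa1 (ENSMUSG00000016427), an accessory subunit, was at 49.6, 49.6, 48.2, 50.3 and 55.3 CPM in the controls, 64.1 in trained sample 1+4, 91.8 in sample 2 and 92.7 in sample 3+5. All trained samples were above all controls, sample 1+4 by the least. The means were 50.6 ± 2.73 CPM (SD, n = 5) and 82.9 ± 16.3 CPM (SD, n = 3), which is a log2 change of 0.87 (SE 0.148, edgeR adjusted p = 0.0956, and 0.000219 without sample 1+4). Ndufa11, whose promoter is shown above, encodes a membrane subunit and was at 77.2 to 88.1 CPM in the controls and 97, 162 and 145 CPM in trained samples 1+4, 2 and 3+5. Its log2 change was 0.89 (SE 0.165, edgeR adjusted p = 0.0956). Ndufs7, a subunit that carries an iron-sulfur cluster, was at 126 to 147 CPM in the controls and 165, 195 and 195 CPM in the trained samples, again without overlap. Ndufb5, whose longest transcript has 3127 bases, had a log2 change of 0.79 without the length offset and 0.81 with it.

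Complex II, succinate dehydrogenase, is wholly encoded in the nucleus and also works in the citric acid cycle. It had the lowest median log2 change of the 5 complexes, 0.38 over 4 genes, with 3 called higher without trained sample 1+4. Sdhb, the iron-sulfur subunit, was at 295 to 358 CPM in the controls and 361, 464 and 435 CPM in trained samples 1+4, 2 and 3+5 (log2 change 0.51, SE 0.126, edgeR adjusted p = 0.119). Sdhc, a membrane anchor, was at 239 to 275 CPM and 292, 303 and 324 CPM in the same order of samples (log2 change 0.43, SE 0.103, edgeR adjusted p = 0.108). Sdha, the flavoprotein subunit, overlapped between groups, with 623 ± 68.1 CPM (SD, n = 5) and 635 ± 82 CPM (SD, n = 3).

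Complex III, which passes electrons to cytochrome c, had 9 tested nuclear subunits with a median log2 change of 0.62, of which 8 were called higher without trained sample 1+4. Uqcr11 (ENSMUSG00000020163), a small subunit, was at 136, 136, 142, 145 and 114 CPM in the controls and at 171, 250 and 226 CPM in trained samples 1+4, 2 and 3+5. The trained samples were all higher; the log2 change was 0.84 (SE 0.143, edgeR adjusted p = 0.0956). The Rieske iron-sulfur protein gene Uqcrfs1 differed less between the trained samples, at 573, 590 and 615 CPM, above controls of 433 to 481 CPM (log2 change 0.51, SE 0.104, edgeR adjusted p = 0.0956). Uqcr10, another small subunit, was at 223 CPM in trained sample 1+4 against 374 and 328 CPM in samples 2 and 3+5, with controls from 186 to 201 CPM.

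Complex IV, cytochrome c oxidase, had 14 tested nuclear subunits with a median log2 change of 0.67, all 14 called higher without trained sample 1+4. All trained samples lay above all controls for 8 of the 14, against 4.46% of all genes. The median deviation of the list in trained sample 1+4 was 0.16, within the controls, which ran from -0.22 to 0.19. Cox5b (ENSMUSG00000061518) was at 189, 187, 183, 222 and 187 CPM in the controls and at 255, 357 and 336 CPM in trained samples 1+4, 2 and 3+5. No trained sample overlapped the controls, and the log2 change was 0.86 (SE 0.142, edgeR adjusted p = 0.0956). Its copy Cox5b-ps had a log2 change of 1.01 (SE 0.165, edgeR adjusted p = 0.0956), and since reads can be split between the copies both values are uncertain. Cox7a1, the isoform of heart and muscle, was at 88.4 to 149 CPM in the controls and 163, 298 and 252 CPM in the trained samples (log2 change 1.07, SE 0.211, edgeR adjusted p = 0.0956); its change was 0.60 with the length offset. Cox6a2, also a muscle isoform, was at 444 to 534 CPM and 595, 716 and 784 CPM.

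ATP synthase had 15 tested nuclear subunits with a median log2 change of 0.54, and 12 were called higher without trained sample 1+4. The genes Atp5g1 and Atp5g3 encode the same mature c subunit of the rotor. Atp5g1 (ENSMUSG00000006057) was at 133, 130, 128, 121 and 116 CPM in the controls and at 160, 234 and 208 CPM in trained samples 1+4, 2 and 3+5. Its log2 change was 0.83 (SE 0.135, edgeR adjusted p = 0.0956), and 0.93 with the length offset, its longest annotated transcript having 4715 bases. Atp5g3 was at 446 to 516 CPM in the controls and 595, 823 and 761 CPM in the trained samples, with a log2 change of 0.73 (SE 0.134, edgeR adjusted p = 0.0956). Atp5d, the delta subunit, was at 209 to 240 CPM in the controls and at a narrow 284, 300 and 302 CPM in the trained samples. All 3 genes had every trained sample above every control.

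**Figure D2:**
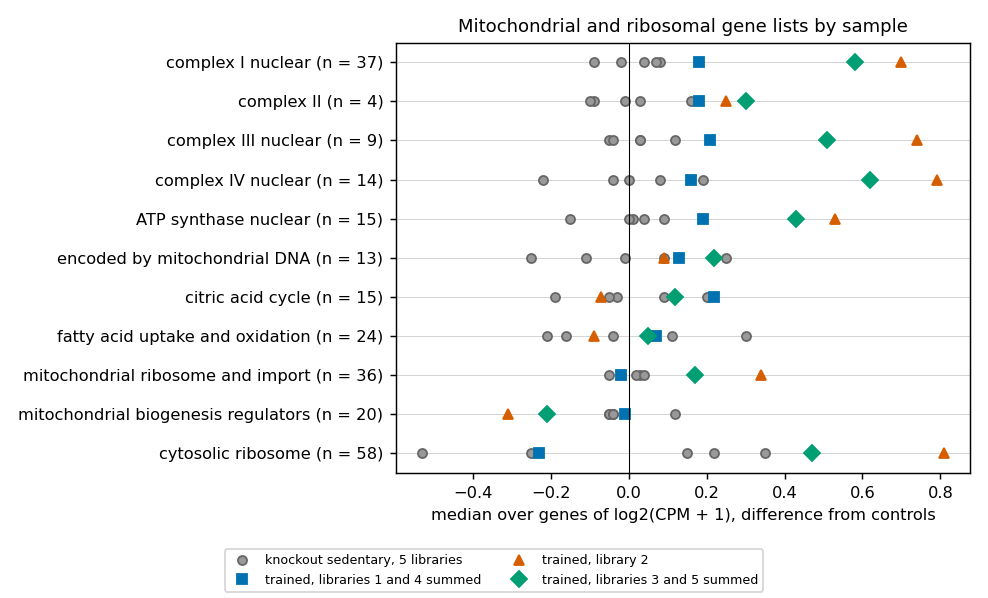
Each row is a gene list with its number of tested genes, and the horizontal axis is the median over those genes of the difference of log2(CPM + 1) from the control mean; grey circles are the 5 controls and coloured marks the 3 trained samples. In complexes I and III and ATP synthase trained sample 1+4 lies just above the controls and samples 2 and 3+5 lie farther right, while the lists of the citric acid cycle and fatty acid oxidation overlap the controls.

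The 13 messenger RNAs encoded by mitochondrial DNA had a lower median than the nuclear subunits of the same complexes. This median log2 change was 0.33, and 0.03 with the length offset, and 3 of 13 were called higher without trained sample 1+4. The gene mt-Co1 encodes the catalytic core of complex IV and was at 38670 to 46530 CPM in the controls and 48440, 49650 and 47650 CPM in trained samples 1+4, 2 and 3+5, all above the controls (log2 change 0.33, SE 0.137, edgeR adjusted p = 0.276). For mt-Co2 the groups overlapped, with controls from 7494 to 10870 CPM and trained samples at 9116, 12110 and 11000 CPM.

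Other mitochondrial pathways had smaller medians. The 15 citric acid cycle genes had a median log2 change of 0.22, and 1 was called higher without trained sample 1+4. Cs, citrate synthase, whose activity is a common marker of mitochondrial content, was at 657 ± 64 CPM in the controls (SD, n = 5) and 663 ± 98.9 CPM in the trained samples (SD, n = 3), with a log2 change of 0.15 (SE 0.123, edgeR adjusted p = 0.611). Malate dehydrogenase gene Mdh2 was highest in trained sample 1+4, at 617 CPM against 485 and 555 CPM in samples 2 and 3+5 and 398 to 523 CPM in the controls. Idh3a, of the NAD-dependent isocitrate dehydrogenase, was at 505 to 607 CPM in the controls and 624, 606 and 640 CPM in trained samples 1+4, 2 and 3+5. Idh3a was the citric acid cycle gene called without sample 1+4 (edgeR adjusted p = 0.0295).

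The 24 genes of fatty acid uptake and oxidation had a median log2 change of 0.15. Without trained sample 1+4, 4 were called higher, against 9.01% of all genes. Echs1, the enoyl-CoA hydratase, was at 81.4 to 94.6 CPM in the controls and 95.9, 121 and 116 CPM in trained samples 1+4, 2 and 3+5 (log2 change 0.52, SE 0.12, edgeR adjusted p = 0.106). Acads, the short-chain acyl-CoA dehydrogenase, was at 52.5 to 60.6 CPM and 62.6, 64.8 and 62.2 CPM. Both genes had no overlap between groups. Pdk4, the kinase that blocks pyruvate oxidation in fasting, varied from 278 to 989 CPM among the controls and covered 307 to 633 CPM in the trained samples, so that no difference was detectable (edgeR adjusted p = 0.903).

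The 36 genes of the mitochondrial ribosome and protein import had a median log2 change of 0.32, and 0.17 with the length offset. Of these, 25 were called higher without trained sample 1+4, against 9.01% of all genes, while the median deviation in that sample was -0.02. Mrps34, of the small mitochondrial ribosomal subunit, was at 52.6 to 66.6 CPM in the controls and 72.6, 82.5 and 80 CPM in trained samples 1+4, 2 and 3+5 (log2 change 0.55, SE 0.115, edgeR adjusted p = 0.0956).

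Regulators of mitochondrial biogenesis had no common direction. Over 20 genes the median log2 change was -0.02, with 1 gene above and 3 below all controls, against 4.46% and 4.27% of all genes. Without trained sample 1+4 there was 1 call in each direction, against 9.01% higher and 3.52% lower over all genes. Ppargc1a, which encodes PGC-1α, was at 53.9, 52.6, 48.2, 59.3 and 48.8 CPM in the controls and 57.1, 38.8 and 51 CPM in trained samples 1+4, 2 and 3+5. Its groups overlapped, with a log2 change of 0.04 (SE 0.119, edgeR adjusted p = 0.923), and the sign turned under 5 of the alternatives. Esrra, the receptor ERRα, was at 90.6 to 113 CPM in the controls and highest in trained sample 1+4, at 131 CPM, against 98.9 and 107 CPM. Pprc1, a coactivator related to PGC-1α, was lower in all trained samples, at 12.8, 11.3 and 11.4 CPM against 15.8 to 21.1 CPM (log2 change -0.45, SE 0.115, edgeR adjusted p = 0.127).

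By the rule for single genes, 12 genes in each direction are named, none of them past the threshold and all 24 at an edgeR adjusted p of 0.0956. They were picked for the smallest p and no overlap between groups, so their separation follows from the choice. In order of p, the 12 higher genes were Gm10039, Vegfb, Map1lc3a, Atp5g1, Cox5b-ps, Cox5b, Gm2962, Neurl2, Ndufa1, Uqcr11, Acot7 and Mif. Gm10039 and Gm2962 are annotated as processed pseudogenes, so their counts may include reads of the genes they were copied from. The 12 lower genes were Flrt2, Fgd4, Ptpn4, Tasor2, Gm38394, Rora, Zfp644, Slc12a2, Igfbp5, Zfp638, Larp4 and Bmpr1a. The longest transcripts of the lower genes all had over 4000 bases, while those of the higher genes, Atp5g1 aside, had under 2000. The lower genes other than Slc12a2 and Igfbp5 overlap another annotated gene, and strandedness is not given in the sources used here, so reads of the partners cannot be told apart. The same holds for Neurl2, Acot7, Ndufa11, Ndufb5, Cox6a2, Atp5d, Gapdh, Mb, Col5a2 and Fbxo32, among others named here.

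Vegfb (ENSMUSG00000024962), a growth factor of the VEGF family, was at 57.9, 55.1, 52.3, 61.2 and 55.2 CPM in the controls and at 75.8, 77 and 77 CPM in trained samples 1+4, 2 and 3+5. The 3 trained samples were nearly level, with sample 1+4 as high as the others. The means were 56.3 ± 3.36 CPM (SD, n = 5) and 76.6 ± 0.66 CPM (SD, n = 3), a log2 change of 0.59 with SE 0.0922, and 0.40 with the length offset. Map1lc3a, an LC3 protein of the autophagosome, was at 81.4 to 104 CPM in the controls and 121, 154 and 134 CPM in the trained samples (log2 change 0.72, SE 0.116). Neurl2, an adaptor of a muscle ubiquitin ligase, had controls from 16.7 to 17.6 CPM and trained samples at 22.9, 21.9 and 22.1 CPM. Acot7, an acyl-CoA thioesterase, was at 10.7 to 11.5 CPM and 14.7, 18.4 and 16.1 CPM, and Mif, a cytokine, at 13.5 to 16.8 CPM and 20, 22.4 and 22.1 CPM.

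Flrt2 (ENSMUSG00000047414), a membrane protein of cell adhesion, was at 13.8, 17.1, 15.7, 14.2 and 13.8 CPM in the controls and at 7.83, 6.27 and 8.13 CPM in trained samples 1+4, 2 and 3+5. All trained samples lay below all controls, sample 1+4 in the midst of the trained samples. The log2 change was -0.86 with SE 0.132, and -0.70 with the length offset. Igfbp5, which binds insulin-like growth factors, was at 421 to 572 CPM in the controls and 251, 258 and 296 CPM in the trained samples, lowest in sample 1+4 (log2 change -0.66, SE 0.126). Rora, the clock receptor RORα, was at 130 to 141 CPM in the controls and 97.1, 87 and 79.7 CPM in the trained samples (log2 change -0.49, SE 0.0887). Fgd4, an exchange factor for CDC42, was at 50.2 to 62.4 CPM and 33.6, 31.5 and 33.1 CPM, again with sample 1+4 level with the other trained samples. Bmpr1a, a receptor for bone morphogenetic proteins, was at 110 to 118 CPM and 86.8, 78.3 and 67.5 CPM.

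**Figure D3:**
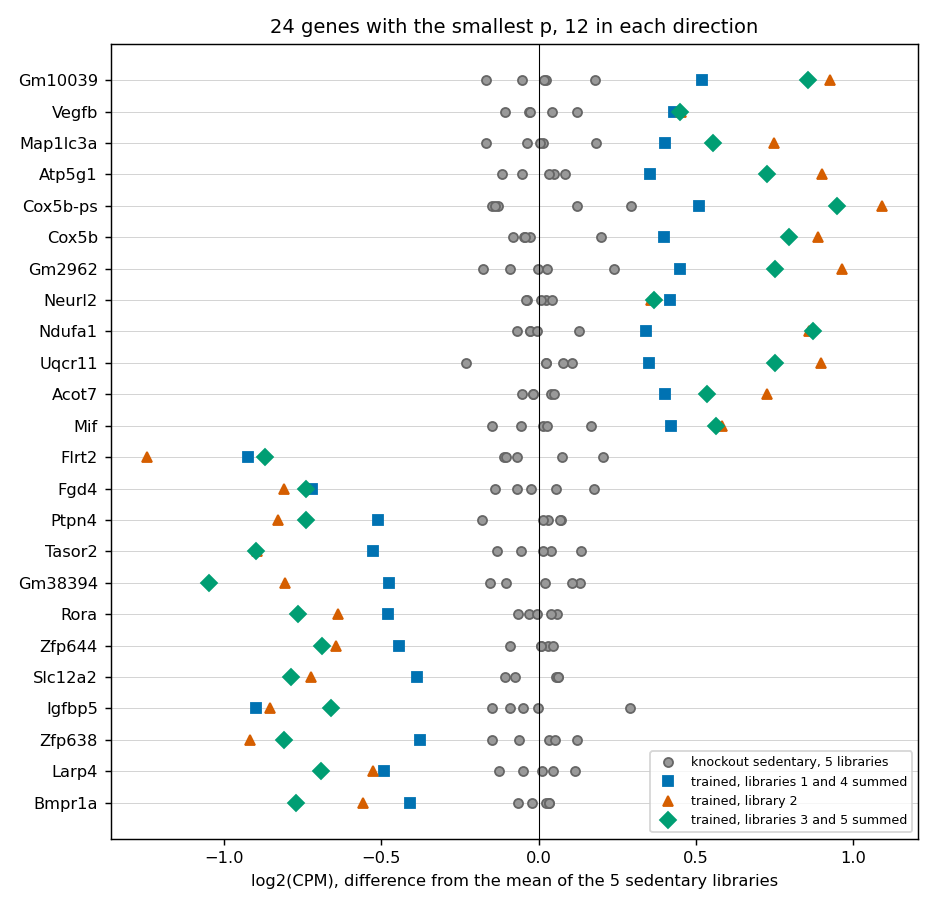
Each row is 1 of the 12 higher and 12 lower genes with the smallest p, and the horizontal axis is the difference of log2(CPM) from the mean of the 5 sedentary libraries; grey circles are sedentary libraries and coloured marks the 3 trained samples. In every row the trained samples stand apart from the controls, since the genes were picked for the smallest p and no overlap. In Vegfb, Neurl2, Flrt2, Fgd4 and Igfbp5 trained sample 1+4 lies level with the other trained samples.

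Contractile genes of slow and fast fibres both had positive medians, but no trained sample lay outside the controls by either list. The median deviation of log2(CPM + 1) over slow-fibre genes was 0.26, 0.4 and 0.32 in trained samples 1+4, 2 and 3+5, with controls from -0.5 to 0.6. Over fast-fibre genes it was -0.05, 0.08 and 0.17, with controls from -0.19 to 0.18. With the length offset the median log2 changes were 0.34 and 0.16. The 13 slow-fibre genes had a median log2 change of 0.48, with 1 above all controls and 4 called higher without trained sample 1+4. The 17 fast-fibre genes had a median of 0.31, with 0 above all controls and 8 called higher without that sample, against 4.46% and 9.01% of all genes. Myh7, the slow myosin heavy chain, varied from 121 to 364 CPM in the controls and was at 245, 255 and 250 CPM in the trained samples (edgeR adjusted p = 0.627). Myh2, the fast oxidative myosin IIa, was at 1357 ± 421 CPM (SD, n = 5) and 1279 ± 387 CPM (SD, n = 3), and its sign turned under 6 alternatives. Myh4, the fast glycolytic myosin IIb, was at 19230 to 29210 CPM in the controls and 20220, 14660 and 19640 CPM in the trained samples (log2 change -0.25, SE 0.191, edgeR adjusted p = 0.571). These 3 adult myosins overlapped between groups. Mb, myoglobin, which stores oxygen, was at 4027, 2755, 3080, 3537 and 3134 CPM in the controls and 5332, 4261 and 4096 CPM in trained samples 1+4, 2 and 3+5. Its trained samples were all higher, sample 1+4 the most (log2 change 0.60, SE 0.139, edgeR adjusted p = 0.106; 0.0283 without sample 1+4). Tnni1, slow troponin I, overlapped between groups, with 18.7 to 53.3 CPM and 39.9, 59.1 and 59.5 CPM.

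Among 22 calcium-handling genes the median log2 change was -0.09, with 2 below all controls, against 4.27% of all genes, and 1 called higher without trained sample 1+4. Sln, sarcolipin, an inhibitor of the calcium pump, ran from 15.9 to 68.2 CPM in the controls and was at 31.5, 11.5 and 11.8 CPM in the trained samples. Mrln, myoregulin, another inhibitor of that pump, was at 129 to 165 CPM in the controls, 117 CPM in trained sample 1+4 and 254 and 208 CPM in samples 2 and 3+5. Mrln was called higher without sample 1+4 (edgeR adjusted p = 0.00117) and had a log2 change of 0.05 with the length offset.

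The 15 glycolytic genes had a median log2 change of 0.23. Of them, 4 lay above all controls and 5 were called higher without trained sample 1+4, against 4.46% and 9.01% of all genes. Gapdh was at 504 to 654 CPM in the controls and 700, 747 and 767 CPM in trained samples 1+4, 2 and 3+5 (log2 change 0.48, SE 0.116, edgeR adjusted p = 0.108; 0.51 with the length offset). Pgam2, the muscle phosphoglycerate mutase, was at 1230 to 1408 CPM and 1414, 1738 and 1833 CPM, with sample 1+4 barely above the controls. The 17 genes of glucose uptake and glycogen had a median of -0.05, close to the -0.02 of all genes, with 1 called in each direction without sample 1+4. Ppp1r3a, which targets a phosphatase to glycogen, was at 746 to 870 CPM in the controls and lower in all trained samples, at 553, 531 and 541 CPM (log2 change -0.44, SE 0.0961, edgeR adjusted p = 0.1; 0.0315 without sample 1+4). Slc2a4, the insulin-responsive transporter GLUT4, was at 628 to 677 CPM in the controls and 667, 472 and 550 CPM in the trained samples (edgeR adjusted p = 0.778).

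The clock list held 19 tested genes with a median log2 change of -0.15 and 3 below all controls. Without trained sample 1+4, 3 were called lower, against 3.52% of all genes. Per2, a repressor of the clock, was at 17.5 to 24.4 CPM in the controls and 15.2, 14.5 and 13.1 CPM in trained samples 1+4, 2 and 3+5, with no overlap (log2 change -0.46, SE 0.113, edgeR adjusted p = 0.119).

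Most matrix genes had negative log2 changes, and none passed the threshold. Of 31 collagen and matrix genes, 2 had a log2 change above 0, the median was -0.29, and 6 lay below all controls, against 4.27% of all genes. With the length offset the median was -0.18, and without trained sample 1+4 it was -0.15 with 1 call in each direction. Fbn1, fibrillin of the elastic microfibrils, was at 53.5, 66.1, 61.6, 49.7 and 32.9 CPM in the controls and 22.9, 30.8 and 25.5 CPM in trained samples 1+4, 2 and 3+5. In CPM the trained samples were all lower, sample 1+4 the lowest, while the groups overlapped on the TMM scale (log2 change -0.85, SE 0.198, edgeR adjusted p = 0.106). Col5a2, a chain of type V collagen, was at 25.8 to 37.8 CPM and 15.6, 20.1 and 18.3 CPM (log2 change -0.64, SE 0.151, edgeR adjusted p = 0.106), and Thbs1, thrombospondin, at 11.2 to 16.7 CPM and 8.75, 8.18 and 6.35 CPM. Fibroblast markers were low in part of the same samples. The summed level of all 8 was 2503 to 4541 CPM in the controls, 1901 CPM in trained sample 1+4, 3615 in sample 2 and 2796 in sample 3+5, and none was at 0 throughout. Lum, a fibroblast marker, was at 77.8 to 139 CPM in the controls and 52.9, 125 and 73 CPM in the trained samples. The part of fibroblast RNA in the matrix values was not tested.

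Among 18 genes of vessel growth the median log2 change was 0.03, and -0.14 without trained sample 1+4, where 1, Vegfb, was called higher. Vegfa, the main vascular growth factor, was at 337 to 513 CPM in the controls and 524, 261 and 309 CPM in trained samples 1+4, 2 and 3+5, so sample 1+4 lay above the controls and the other trained samples below them (edgeR adjusted p = 0.806). Hif1a, the oxygen-regulated factor upstream of it, was lower in all trained samples, at 31.8, 26.8 and 26.8 CPM against 35.5 to 42.2 CPM (log2 change -0.28, SE 0.0911, edgeR adjusted p = 0.179).

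Genes of muscle breakdown lay on both sides of the sedentary level. Of 22 atrophy and autophagy genes, 1, Map1lc3a, lay above and 4 below all controls, against 4.46% and 4.27% of all genes, with a median log2 change of -0.02. Without trained sample 1+4 the median was 0.03, with 5 called higher and 2, Fbxo30 and Foxo3, called lower. Fbxo32, the atrophy ligase atrogin-1, was at 398, 500, 514, 458 and 494 CPM in the controls and 332, 308 and 311 CPM in trained samples 1+4, 2 and 3+5. The groups were apart, with a log2 change of -0.44 (SE 0.112, edgeR adjusted p = 0.127; 0.0581 without sample 1+4). Fbxo30, another ubiquitin ligase of muscle loss, was at 35.1 to 41.3 CPM and 29.7, 23.8 and 21.5 CPM (log2 change -0.50, SE 0.101, edgeR adjusted p = 0.0956), and Foxo3, a transcription factor of the atrophy programme, at 34.7 to 40.9 CPM and 30, 24.5 and 26.3 CPM. In the list of 22 myogenic and denervation genes, 2 lay below all controls, against 4.27% of all genes, and the median was -0.11. Without trained sample 1+4 it was -0.24, with 2 called lower, Musk among them. Musk, the receptor kinase of the neuromuscular junction, was at 22 to 30.5 CPM in the controls and 15.5, 16.7 and 15.2 CPM in the trained samples (log2 change -0.56, SE 0.125, edgeR adjusted p = 0.103). Mstn, myostatin, which limits muscle growth, was at 117 to 153 CPM and 96.9, 92.4 and 80.2 CPM (log2 change -0.41, SE 0.12, edgeR adjusted p = 0.162).

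The 58 genes of the cytosolic ribosome separated the trained samples from each other. Their median log2 change was 0.54, but 1 gene lay above all controls, and the median deviation was -0.23 in trained sample 1+4, 0.81 in sample 2 and 0.47 in sample 3+5, with controls from -0.53 to 0.35. Without sample 1+4, 47 were called higher. Rplp2, of the ribosomal stalk, was at 46.4 to 69.6 CPM in the controls and 65.6, 134 and 111 CPM in trained samples 1+4, 2 and 3+5. Rps20, of the small subunit, was at 90 to 138 CPM and 101, 240 and 183 CPM. In both genes sample 1+4 lay among the controls. The respiratory chain list, in contrast, was above the controls in all 3 trained samples.

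**Figure D4:**
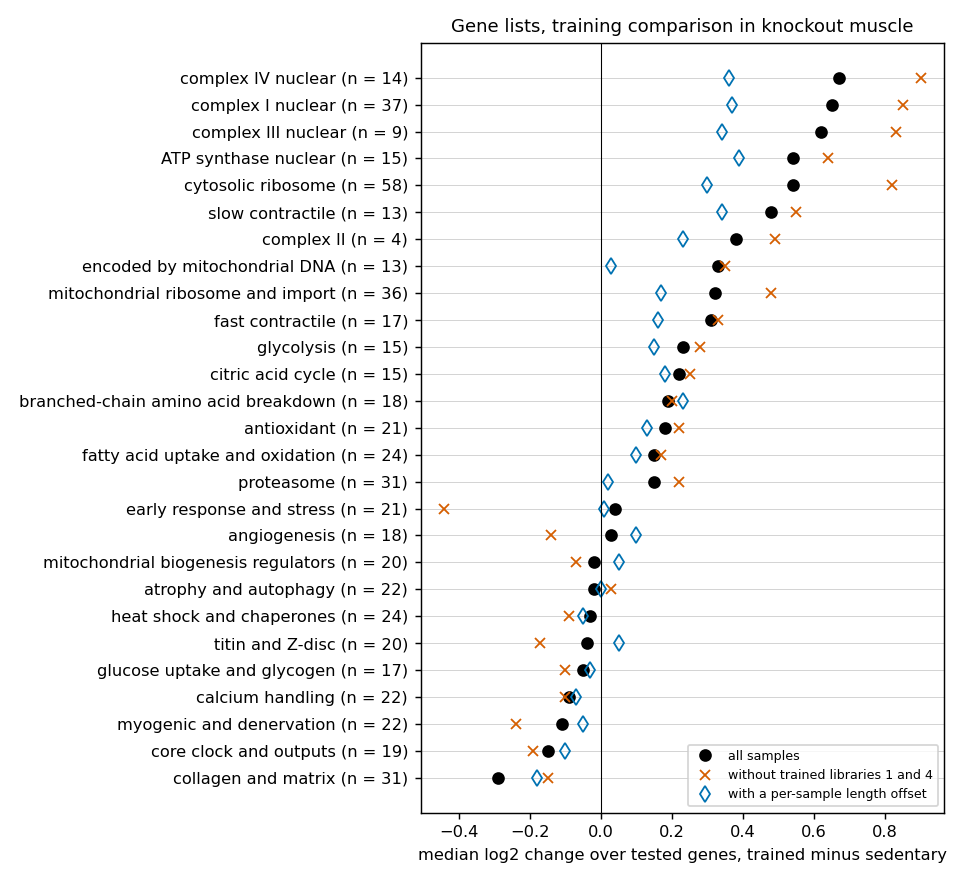
Each row is a pathway list, and the horizontal axis is the median log2 change, trained minus sedentary, in the fit of all 3 trained samples, in the fit without trained sample 1+4 and with the length offset. The respiratory chain lists lie from 0.38 to 0.67 with all samples, and collagen and matrix lies at -0.29.

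Markers of other cell types were read in the same samples. All 9 tested adipocyte markers had a log2 change above 0, with a median of 1.17 and 3 above all controls; their median deviation was 0.43 in trained sample 1+4, 1.28 in sample 2 and 0.81 in sample 3+5, with controls from -0.5 to 0.75. Without sample 1+4, 6 were called higher. Their summed level was 314 to 393 CPM in the controls, 384 in sample 1+4, 728 in sample 2 and 494 in sample 3+5, so that sample 1+4 lay among the controls by this sum. Cfd, adipsin, was at 52.4, 62.9, 22.4, 30.2 and 47.8 CPM in the controls and 73, 250 and 120 CPM in trained samples 1+4, 2 and 3+5 (log2 change 1.94, SE 0.39, edgeR adjusted p = 0.0956). Plin1, which coats fat droplets, was at 3.21 to 10.4 CPM and 13.6, 17.4 and 14.4 CPM (log2 change 1.26, SE 0.274, edgeR adjusted p = 0.0974). For both genes all trained samples were higher. Blood markers had a median of 0.90 over 6 tested genes, carried by sample 2, whose median deviation was 1.58 against -0.43 in sample 1+4 and 0.24 in sample 3+5. The sum of these 6 was 411 to 896 CPM in the controls and 490, 2963 and 851 CPM in samples 1+4, 2 and 3+5. The haemoglobin gene Hbb-bs was at 213 to 570 CPM in the controls and 246, 2125 and 454 CPM in the trained samples. Macrophage markers had a median of 0.02 over 9 genes, with a summed level of 104 to 285 CPM in the controls and 63.7, 362 and 123 CPM in the trained samples. Lyz2, a macrophage marker, was at 40 to 130 CPM in the controls and 26.6, 191 and 52.9 CPM in the trained samples. Of 8 lymphocyte markers 0 were abundant enough to test, and the 12 muscle-fibre markers, which check the labelled tissue, summed to between 77970 and 97330 CPM in every sample. The part of adipocyte, blood and macrophage RNA in the gene differences was not tested.

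**Figure D5:**
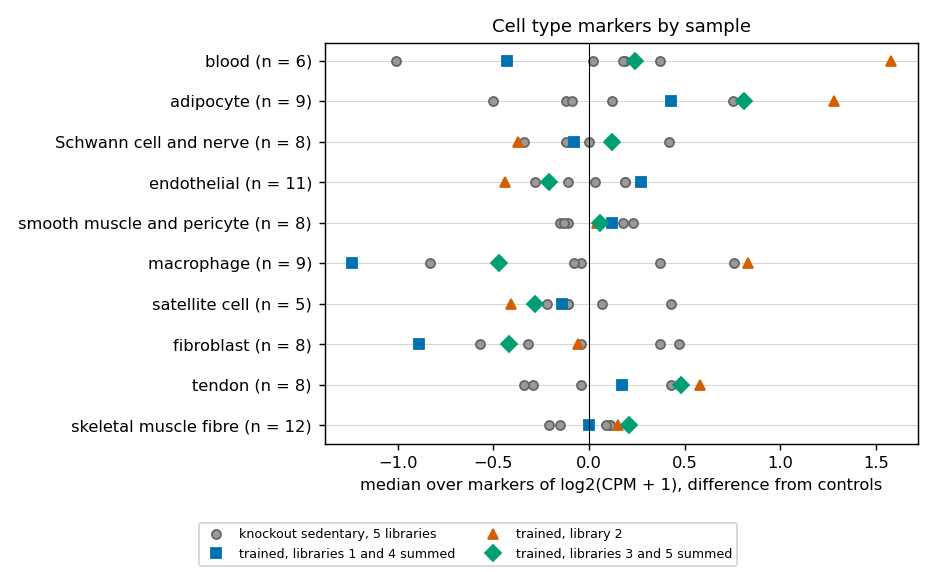
Each row is a marker list with its number of tested genes, and the horizontal axis is the median difference of log2(CPM + 1) from the control mean; grey circles are controls and coloured marks the trained samples. Adipocyte markers lie right of 0 in all 3 trained samples, with sample 1+4 within the range of the controls. Blood markers are far right in trained sample 2. Macrophage markers lie just right of the controls in sample 2 and left of all controls in sample 1+4.

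Whether the response differed from that of vehicle muscle was tested as an interaction over all 4 groups. Of 14678 genes, 0 had an edgeR adjusted p under 0.05 (0% called; smallest 0.593; 1101 at an unadjusted p under 0.05), and DESeq2 called 29. Vehicle-trained library 2 stood apart from its group, with Arntl at 132 CPM against 6.32 to 6.68 CPM in the other 4. Without it, 0 of 14617 genes had an adjusted interaction p under 0.05 (0% called; smallest 0.217; 1662 unadjusted). In vehicle muscle without that library, training itself gave 0 calls at an adjusted p under 0.05 (0% called; smallest 0.0593; 1891 unadjusted). For the 79 respiratory chain and ATP synthase genes, the median log2 change was 0.63 in knockout and 0.20 in vehicle muscle without library 2. None of these genes passed the interaction test. The mean log2(CPM + 1) over these genes was 7.72 in knockout trained sample 1+4, 8.18 in sample 2 and 8.07 in sample 3+5, above knockout controls of 7.42 to 7.6, while the vehicle controls lay between 7.25 and 7.61 and the vehicle-trained libraries other than 2 between 7.37 and 7.98. The vehicle difference rested on vehicle-trained library 1, at 7.98: trained minus control, it was 0.13 without library 2 and 0 without both. Collagen and matrix genes had medians of -0.29 in knockout and 0.53 in vehicle muscle without library 2, with 0 passing the interaction test and no test of the medians. Their mean difference of log2(CPM + 1) in vehicle muscle was 0.3 with all libraries, 0.48 without library 2 and 0.37 without libraries 1 and 2. Vegfb, whose knockout change was 0.59, had a change of -0.03 in vehicle muscle without library 2 (edgeR adjusted p = 0.908). Its interaction was also not past the threshold.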

How the data were processed

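RNA was extracted with Trizol and a Qiagen column and sequenced from Illumina libraries, per the labels' protocols. The submitters' processing notes name STAR 2.7.8a, Partek, DESeq2 and the builds mm10 and GRCm39, without roles. The authors deposited estimated counts for 21844 genes, under the name of another unit; column sums differ between libraries, which CPM would not. The lowest sum of a gene over the 20 libraries is 10. The members and gene lists were chosen with earlier results of these data known.

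The estimated counts were rounded. Library pairs whose noise at high counts was under 1.5 times their noise at low counts were summed, a limit set after the values had been seen. Genes with at least 1 CPM in at least 3 samples of the 2 knockout groups were tested with edgeR 4.0.16 (R 4.3.3; quasi-likelihood, TMM, two-sided, Benjamini-Hochberg adjusted p under 0.05), with no covariate. DESeq2 1.42.0, limma 3.58.1 with a pseudocount of 1, other scalings and filters, single libraries left out, a replicate block and fits of all 4 groups were alternatives. Transcript length came from the longest GENCODE M21 transcript, which matched 21774 gene identifiers. Named genes are the targeted gene, up to 4 members per list with the smallest p, a set of defining members, and the 12 genes per direction with the smallest p and no overlap, since none passed the threshold. Which of them are printed, and the 3 promoters, were chosen after their values were seen. A result for 1 gene of the clock list is not reported here. The columns for the knockout groups total 10610333 to 18969645 counts. On simulated counts for 14085 genes, the test recovered 13 of 50 genes changed 1.5-fold, 37 of 50 changed 2-fold and 47 of 50 changed 4-fold, with 7 calls among unchanged genes. In the measured samples 0 genes passed the threshold. Cox7a1, at a log2 change of 1.07, and Cfd, at 1.94, each had an edgeR adjusted p of 0.0956. Recovery of changed genes in the measured samples was not tested.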

Additional observations from a re-analysis of the deposited data

Results flagged for a closer look

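Single controls stood apart from the other 4 in 10 of 127 groups of 5 controls. A rate of 1 in 20 would give about 6.35 if the groups were independent. The groups are genes and gene lists read in the same 5 libraries, so they are not independent, and the count was not tested. Arntl was high in control 1 (18.87 CPM), Cox5b in control 4 (221.6 CPM) and Nr4a3, an exercise-responsive nuclear receptor, in control 2 (22.26 CPM against 2.35 to 6.77 in the others). Control 5 was low in Uqcr11 (114.3 CPM), Ptpn4 (102.1 CPM) and Txn2 (106.8 CPM), and control 4 in Zfp644 (36.94 CPM). In mean log2(CPM + 1), control 5 was low over the ATP synthase list (7.84) and the blood markers (5.25), and control 4 was high over the biogenesis regulators (4.93).

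For complex II, the trained samples were above the control mean in knockout muscle and below it in vehicle muscle, with mean differences of 0.21 and -0.24 in log2(CPM + 1). Without vehicle-trained library 2, which stood apart from its group, the vehicle difference was -0.14. The difference between knockout and vehicle muscle was not tested for the list.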

How the results depend on the processing

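The count of 0 genes changed most when trained sample 1+4 was left out: with single samples left out it ran from 0 to 1765, the latter without that sample. It was 523 under DESeq2, 195 with the 10 libraries as separate samples, and 119 in the fit of all 4 groups without vehicle-trained library 2. With the replicate number as a block over 10 separate libraries it was 151. Same-numbered deviations correlated at 0.18, 0.348, 0.148, 0.231 and -0.063 for numbers 1 to 5, so 4 of 5 were above 0.1, and 0 of 5 libraries correlated best with their own number. Neither this nor the labels established a pairing. All other alternatives gave 0 calls. The Arntl difference ran from -0.571 to -0.115 with single samples left out. The interaction count was 29 under DESeq2 and 0 otherwise, with single samples left out from 0 to 0.

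Over the 89 named genes, 1491 of 1778 alternative values kept their sign and side of the threshold, 263 passed it (64 of them without sample 1+4) and 24 changed sign. With single samples left out, the log2 change ran from -0.454 to 0.017 for Arntl (0.015 without control 1), -0.148 to 0.023 for Slc2a4, -0.403 to 0.048 for Vegfa, -0.086 to 1.827 for Hbb-bs and -0.028 to 0.512 for Myh1. It ran from -0.372 to 0.165 for Pdk4 (0.06 without trained sample 2, and 0.079 with the block) and from -0.02 to 0.177 for Ppargc1a (-0.008 without sample 1+4), which was at -0.099 with column sums, -0.113 with limma and -0.02 with trained libraries 1, 2 and 3 only. For Myh2 the range was -0.104 to 0.247, with -0.025, -0.066 and -0.009 without control 1, control 2 and trained sample 3+5, and it was at -0.085 with column sums and -0.079 with limma. Lyz2 ran from -0.904 to 0.731, and was at -0.262 with limma, -0.081 with 10 separate libraries and -0.436 with the block. Of 560 list medians, 79 moved by over 1 SD of the controls and 32 changed sign. The cause of these changes was not tested. The length offset and the TMM-scaled overlap were added after seeing the data. A missing call does not show that a gene did not respond.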

Other observations

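Some genes that handle peroxides and branched-chain amino acids were also above the sedentary level, with none past the threshold in the fit of all 3 trained samples. Of 21 antioxidant genes, 4 lay above all controls on the TMM scale and 9 were called higher without trained sample 1+4, against 4.46% and 9.01% of all genes. The median log2 change was 0.18. Their summed level was 1862 to 2026 CPM in the controls and 1834, 2288 and 2070 CPM in trained samples 1+4, 2 and 3+5. Prdx5, a mitochondrial peroxiredoxin, was at 105 to 115 CPM in the controls and 131, 161 and 151 CPM in trained samples 1+4, 2 and 3+5 (log2 change 0.57, SE 0.11, edgeR adjusted p = 0.0956). The cytosolic peroxiredoxin Prdx2 was at 77.3 to 88.5 CPM in the controls and 92.6, 129 and 111 CPM in the trained samples. Of 18 genes of branched-chain amino acid breakdown, 8 lay above all controls on the TMM scale and 5 were called higher without sample 1+4. In CPM, 4 lay above and 2 below all controls, against 2.00% and 9.97% of all genes. The median log2 change was 0.19, and 0.23 with the length offset. Their summed level was 1217 to 1333 CPM in the controls and 1341, 1234 and 1337 CPM in trained samples 1+4, 2 and 3+5. Bcat2, the mitochondrial aminotransferase of that pathway, was at 69.7 to 76 CPM in the controls and 82, 84.3 and 87.9 CPM in the trained samples (log2 change 0.35, SE 0.0933, edgeR adjusted p = 0.139).

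Without trained sample 1+4, 9.01% of all genes were called higher and 3.52% lower. Over 31 proteasome genes the median log2 change was 0.15, and 0.02 with the length offset, with 7 called higher without trained sample 1+4. Over 24 heat shock and chaperone genes it was -0.03, with 2 called higher without that sample, although Hspb2, a small heat shock protein of muscle, was at 36.9 to 43.3 CPM in the controls and 49.4, 57 and 47.3 CPM in trained samples 1+4, 2 and 3+5 (log2 change 0.48, SE 0.101, edgeR adjusted p = 0.096). Over 20 titin and Z-disc genes it was -0.04, with 3 called lower without that sample. Over 21 early response and stress genes it was 0.04 with all samples and -0.44 without trained sample 1+4, with 4 called lower there. Nr4a3, a nuclear receptor of that list, was at 2.35 to 22.3 CPM in the controls and 2.2, 2.45 and 1.77 CPM in the trained samples.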
